A study of Mus musculus with 24 samples.

Results

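T cells recovered from liver, lung and small intestine were compared, as 1 equally weighted group, with T cells recovered from the blood on the same day after transplantation, to find transcripts that differed in the same direction at all tissue sites. All arrays labelled liver, lung, small intestine or peripheral blood on day 4 were taken, 5 of each. That makes 15 tissue arrays and 5 blood arrays, or 20 of the 24 arrays in the series. The other 4 arrays held graft cells of day 0 and stayed out of the fit. Every sample was described as CD8+ OT-I T cells, which carry a transgenic receptor for an ovalbumin peptide. They alone carried the CD45.1 allele, and antibody to it with magnetic beads was used to select them. The donors were C57BL/6-Tg(TcraTcrb)1100Mjb/J mice. In all 4 groups the cells came from irradiated m-act OVA recipients (C57Bl/6-Tg(CAG-OVA)-916Jen/J), in which a broadly active promoter drives ovalbumin. The mice were female and 8 to 16 weeks old. All recipients had received 11 Gy in 2 doses, then 3000000 bone marrow cells and 15000000 splenocytes, and were described as having lethal acute graft-versus-host disease. The groups therefore shared donor, recipient, irradiation and day, and differed in the site of recovery. The design text names dissociation for the tissues, so the site of a sample and the preparation that site required cannot be told apart. Whether any samples share an animal is not given in the sources used here, and the p-values measure only the spread between these arrays.

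Acute graft-versus-host disease begins when donor T cells recognise antigens of the recipient, multiply, circulate and pass into the liver, lung and gut, where they injure the tissue. Stimulated or stressed T cells transcribe immediate-early genes within minutes. Among these are Fos and Jun, whose proteins pair to form the transcription factor AP-1, and Dusp1, a phosphatase that switches off MAP kinases. T cells held in a tissue typically express Cd69 and little of the egress receptor gene S1pr1, whereas circulating T cells express S1pr1 and genes for lymph node homing.

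In T cells of the tissues, 5 transcripts were higher than in T cells of the blood: Cxcl10, Dusp1, Cd83, Fos and Rhob. Another 7 were lower: Haspin, Mtfr1, Poc1b, Taf2, Iars, Gemin5 and Ercc2. All 12 had the same sign in liver, lung and intestine. Cxcl10 and Dusp1 also passed the threshold in each tissue alone, and both were higher there. In bulk samples such as these, fewer cells of a type and less RNA per cell cannot be told apart.

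The promoters of 4 of the 5 higher genes were listed in the RefSeq table of mouse promoters (GRCm38.p6). The 250 bases before the start of 3 of them follow, 5′ to 3′ on the strand of the gene, because these genes were called and their promoters held a match to a motif searched. Capitals mark matches to 1 of 6 motifs searched on both strands. The motifs were the cyclic AMP response element (TGACGTCA), the AP-1 site (TGANTCA), the TATA box (TATAAA), the serum response element, the kappaB site and the interferon-stimulated response element. The windows lie at chr5:92348890-92349139 on the minus strand for Cxcl10, chr17:26508473-26508722 on the minus strand for Dusp1 and chr12:85473640-85473889 on the plus strand for Fos.
Cxcl10: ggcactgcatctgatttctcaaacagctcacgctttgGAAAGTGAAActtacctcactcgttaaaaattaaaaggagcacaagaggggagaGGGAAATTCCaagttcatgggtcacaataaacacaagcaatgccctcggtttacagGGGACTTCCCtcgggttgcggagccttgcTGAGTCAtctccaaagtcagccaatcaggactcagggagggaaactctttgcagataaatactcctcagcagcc
Dusp1: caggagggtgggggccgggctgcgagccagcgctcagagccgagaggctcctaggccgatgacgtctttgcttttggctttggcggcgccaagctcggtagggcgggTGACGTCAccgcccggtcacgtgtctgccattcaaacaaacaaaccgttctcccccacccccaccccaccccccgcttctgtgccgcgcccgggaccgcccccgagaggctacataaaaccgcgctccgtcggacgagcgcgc
Fos: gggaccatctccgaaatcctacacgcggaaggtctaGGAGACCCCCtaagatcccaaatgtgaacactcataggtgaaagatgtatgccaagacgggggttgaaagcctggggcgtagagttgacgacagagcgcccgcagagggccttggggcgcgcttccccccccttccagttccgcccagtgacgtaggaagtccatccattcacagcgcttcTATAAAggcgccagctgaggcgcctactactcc
The capitals in Cxcl10 are, in order, 1 interferon-stimulated response element, 2 kappaB sites and 1 AP-1 site. Those in Dusp1 are 1 cyclic AMP response element, and those in Fos are 1 kappaB site and 1 TATA box. The window of Rhob held no match to these letters. Of 32851 promoter windows of the same length in the table, 2.98% held the interferon-stimulated response element, 3.9% the kappaB site, 6.75% the AP-1 site, 1.55% the cyclic AMP response element, 12.4% the TATA box and 1.47% the serum response element. Promoters were listed for 9 of the 12 genes, Cd83, Mtfr1 and Taf2 being the others, and the 5 genes among them that were lower held no match. A match is a description of the sequence and does not show that a factor was bound. Only full matches within the 250 bases were searched, so partial sites and sites further from the start are not marked.

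Each value below is log2 of the processed signal minus the 75th percentile of the gene probes on that array, in log2 units. A difference is tissue minus blood, with slide as a block, and its error is the standard error of the limma fit. Each of 5 slides held 1 liver, 1 lung, 1 intestine and 1 blood array with the same replicate number, so that each tissue array had a blood array on its own slide. The 3 tissue arrays of a slide share that blood array. In all, 8672 genes were tested, and a gene was called when its p, adjusted by Benjamini-Hochberg, was under 0.05. Well above background is a flag of the image analysis. It was set on 23.2% to 39.2% of gene spots of the 20 arrays.

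Cxcl10, an interferon-induced chemokine that attracts cells bearing CXCR3, differed most firmly. Its values on slides 1 to 5 were 2.03, 2.58, -0.15, 0.66 and 2.77 in liver, 1.92, 2.81, -1.04, -0.44 and 1.04 in lung, and 3.75, 4.06, 1.36, 1.52 and 1.57 in intestine, against -1.40, 0.08, -2.24, -3.25 and -1.90 in blood. Every tissue array lay above the blood array of its slide, while across slides lung 3, lung 4 and liver 3 lay below the highest blood array. The difference was 3.37 ± 0.31 (limma adjusted p = 9.22e-05), or 10.3-fold, with 3.32 in liver, 2.60 in lung and 4.19 in intestine. The probe was well above background on 13 of the 15 tissue arrays and on 1 of the 5 blood arrays, so the size of the difference rests partly on dim spots. A second Cxcl10 probe gave a smaller difference, 1.74, and was well above background on 9 tissue arrays and on no blood array. Cxcl10, and likewise Fos and Rhob, passed the filter in tissue groups and not in blood.

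Dusp1 read 2.37, 2.44, 1.60, 2.37 and 2.26 in liver, 2.43, 3.16, 1.37, 1.92 and 2.39 in lung, and 2.60, 2.64, 1.75, 0.91 and 2.06 in intestine, against 0.73, 1.32, -0.22, -0.83 and -0.03 in blood. The groups were apart except that intestine 4 lay below blood 2. The difference was 1.96 ± 0.22 (limma adjusted p = 6.31e-04), or 3.88-fold, and its size was alike by value in liver (2.01), lung (2.06) and intestine (1.79). All 20 arrays were well above background.

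Cd83 encodes an immunoglobulin-like surface protein found on mature dendritic cells and on activated lymphocytes. It read 4.57, 5.42, 1.62, 4.70 and 6.11 in liver, 3.38, 4.26, 0.34, 2.83 and 2.61 in lung, and 5.23, 6.02, 4.80, 3.64 and 5.04 in intestine, against 0.49, 1.84, -0.06, 0.09 and 1.57 in blood. Liver 3 and lung 3 were low within their groups and lay inside the range of the blood arrays, and the other 13 tissue arrays were above it. The difference was 3.25 ± 0.41 (limma adjusted p = 0.00181). It was 3.70 in liver, 1.90 in lung and 4.16 in intestine, and that in lung alone did not pass the threshold (adjusted p = 0.0704).

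Fos read 1.83, 2.78, 2.68, 0.91 and 2.72 in liver, 3.82, 4.46, 1.52, 3.20 and 2.95 in lung, and 3.06, 3.95, 1.84, 1.16 and 1.25 in intestine, against 1.28, 1.48, -2.81, -3.70 and -1.99 in blood. The blood arrays were of unlike level: those of slides 1 and 2 reached the lower tissue values, and those of slides 3, 4 and 5 were far below and not well above background. The difference was 3.69 ± 0.51 (limma adjusted p = 0.00411), with slide means from 1.62 on slide 1 to 5.45 on slide 4. Liver alone did not pass the threshold (3.33, adjusted p = 0.137).

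Rhob, a small GTPase of endosomes that is itself quickly induced, read -0.52, -0.38, 0.14, 0.43 and 0.53 in liver, -0.18, 0.51, 0.54, 0.76 and 0.54 in lung, and -0.14, 0.53, 0.18, 0.17 and 0.62 in intestine, against -1.05, -0.80, -1.21, -0.93 and -0.71 in blood. Here no tissue array overlapped with any blood array. Of all genes tested, 0.0115% lay above blood in that way, and Rhob was the only one. The difference was 1.19 ± 0.17 (limma adjusted p = 0.00478), with 3 of 5 blood arrays well above background. It did not pass the threshold in liver alone (0.98, adjusted p = 0.264). A second Rhob probe, which did not pass the filter, gave a smaller difference, 0.63, and was well above background on 2 tissue arrays and on 0 blood arrays.

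**Figure D1:**
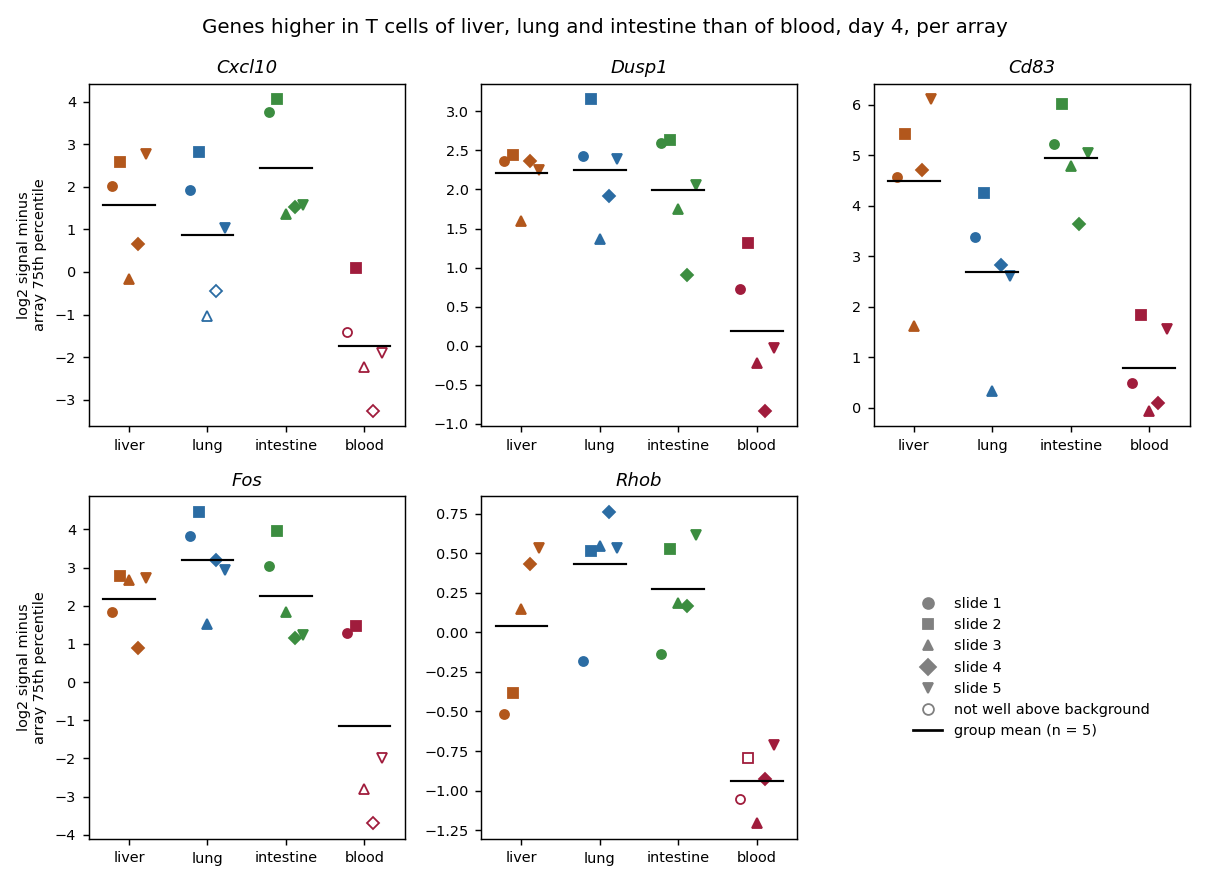
Log2 processed signal minus the 75th percentile of the array (vertical axis) of the 5 genes that were higher in T cells of the tissues, for liver, lung, intestine and blood on day 4. Each point is 1 array, its shape gives the slide, open points were not well above background, and lines are means of 5 arrays. The Rhob values of the tissues, from -0.52 to 0.76, all lie above those of blood, from -1.21 to -0.71.

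The higher genes were 0.0577% of the genes tested and the lower genes 0.0807%. At an unadjusted p under 0.05, 824 genes (9.5%) were higher and 1740 (20.1%) lower. After centring on the median of detected probes, which moved the median difference of all genes by 0.10, that split was 1260 higher and 1438 lower. The median difference over all tested genes was -0.19, with 0.07 in liver, -0.27 in lung and -0.31 in intestine. Differences had the same sign in all 3 tissues for 2664 genes in the higher and 3257 in the lower direction, which is a description because the 3 differences share the blood arrays. Against blood, each tissue alone gave 3 called genes in liver (0.0346%, all 3 higher), 95 in lung (1.1%, 55 higher and 40 lower) and 1086 in intestine (12.5%, 97 higher and 989 lower). The 3 genes of liver were Cd83, Cxcl10 and Dusp1.

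The count of 12 rested on single arrays. Without intestine 5 it was 1016 (253 higher, 763 lower), without blood 2 it was 22, and without lung 4, intestine 1, blood 4 or blood 5 it was 7, 7, 6 and 5. The 5 higher genes were nevertheless called in each of the 20 fits that left out 1 array. Of the 7 lower genes, none was called without blood 5. The count called in every tissue, 2, was 4 without blood 3 and 1 without blood 5, intestine 1 or intestine 2, with Cxcl10 called in all of these. With no slide term, or with slide as a random block, it was 0.

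Each of the 5 higher genes was above the blood array of its slide on 15 of 15 tissue arrays. Over all genes, 13 (0.15%) were. The other 8 did not pass the threshold. Among them Ppp1r15a, which encodes a subunit that restarts translation after stress, had a difference of 0.91 ± 0.24 (adjusted p = 0.0872), C3, the third complement component, one of 1.25 ± 0.33 (adjusted p = 0.0872), and Tnf, an inflammatory cytokine, one of 0.83 ± 0.28 (adjusted p = 0.115). Tnf was well above background on 4 liver, 2 lung, 3 intestine and 0 blood arrays, so it entered the test through liver alone. Trf, the iron carrier transferrin, had the largest difference of these, 3.85 ± 1.05 (limma adjusted p = 0.089). Trf was well above background on 2 liver, 4 lung, 3 intestine and 0 blood arrays. It thus entered the test through lung alone, where it was highest, and its 15 of 15 arrays above blood include dim spots. Its tissue values ran from -2.73 on liver 3 to 5.52 on lung 4, against -3.73 to -1.95 in blood, so that the arrays of one tissue were far apart.

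In the lower direction 200 genes (2.31%) were below the blood array of the slide on 15 of 15 tissue arrays, the 7 called genes among them. In 22 genes (0.254%) all tissue arrays lay below all blood arrays, 5 of which were called: Haspin, Mtfr1, Poc1b, Gemin5 and Ercc2.

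Haspin, a mitotic histone kinase, was near background in the tissues. It read -1.44, -1.23, -0.06, -3.27 and -2.92 in liver, -1.73, -3.24, -2.09, -2.13 and -2.67 in lung, and -2.95, -2.52, -2.66, -2.29 and -1.26 in intestine, against 0.12, 0.29, 0.71, 0.85 and 1.01 in blood. The blood arrays were close together and all tissue arrays were below them, liver 3 being nearest. The difference was -2.76 ± 0.42 (limma adjusted p = 0.00854). Only 2 of 15 tissue arrays were well above background, against 4 of 5 blood arrays, so the fitted size is uncertain, and Haspin was tested only because it passed the filter in blood, the group where it is high. In lung, where no array was, Haspin was at least 2.32-fold lower.

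Poc1b, which encodes a centriole protein, read -2.96 to -1.01 in liver, -2.38 to -1.42 in lung and -2.85 to -1.37 in intestine, against -0.73 to 0.21 in blood. It was near background in tissue, with 1 of 15 tissue arrays well above it and 4 of 5 blood arrays. It was at least 1.72-fold lower in liver and at least 1.31-fold lower in lung, with a fitted difference of -1.66 ± 0.28 (limma adjusted p = 0.0251). Like Haspin, it entered the test through blood alone.

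Mtfr1, a regulator of mitochondrial fission, was measured well above background on all 20 arrays. It read 0.81, 1.30, 0.87, 0.97 and 0.01 in liver, 1.25, 1.07, 1.23, 0.81 and 0.01 in lung, and 0.59, 0.80, 0.96, 0.30 and 0.21 in intestine, against 1.54, 1.96, 2.08, 1.84 and 2.08 in blood. The lowest array of each tissue was on slide 5, where the mean difference was -2.01, against -0.65 to -1.14 on the other slides. The difference was -1.15 ± 0.19 (limma adjusted p = 0.0199) and close by value in liver (-1.11), lung (-1.03) and intestine (-1.33).

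Ercc2, the helicase of the transcription and repair factor TFIIH, ranged from 1.25 to 1.80 in liver, 1.5 to 1.94 in lung and 1.1 to 1.79 in intestine, against 2.11 to 2.56 in blood. Its difference of -0.85 ± 0.16 was the smallest of the 12 called genes (limma adjusted p = 0.0458). Gemin5, an RNA-binding protein of the complex that assembles splicing particles, ranged from 0.48 to 2.39 over the tissue arrays, against 2.56 to 2.97 in blood. Neither gene overlapped between the tissue and the blood arrays.

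Iars encodes the isoleucyl-tRNA synthetase of the cytosol and Taf2 a subunit of the general transcription factor TFIID. Iars ranged from -0.06 to 2.23 in tissue, against 1.86 to 2.88 in blood, with a difference of -1.11 ± 0.20. Taf2 ranged from -2.57 to 0.56 in tissue, against -0.02 to 1.17 in blood, with a difference of -1.31 ± 0.24. Both overlapped across slides, and both had a limma adjusted p of 0.0458, as had Gemin5 (-1.19 ± 0.22). By value these 3 differed least from blood in liver, at -0.82, -0.75 and -0.86.

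**Figure D2:**
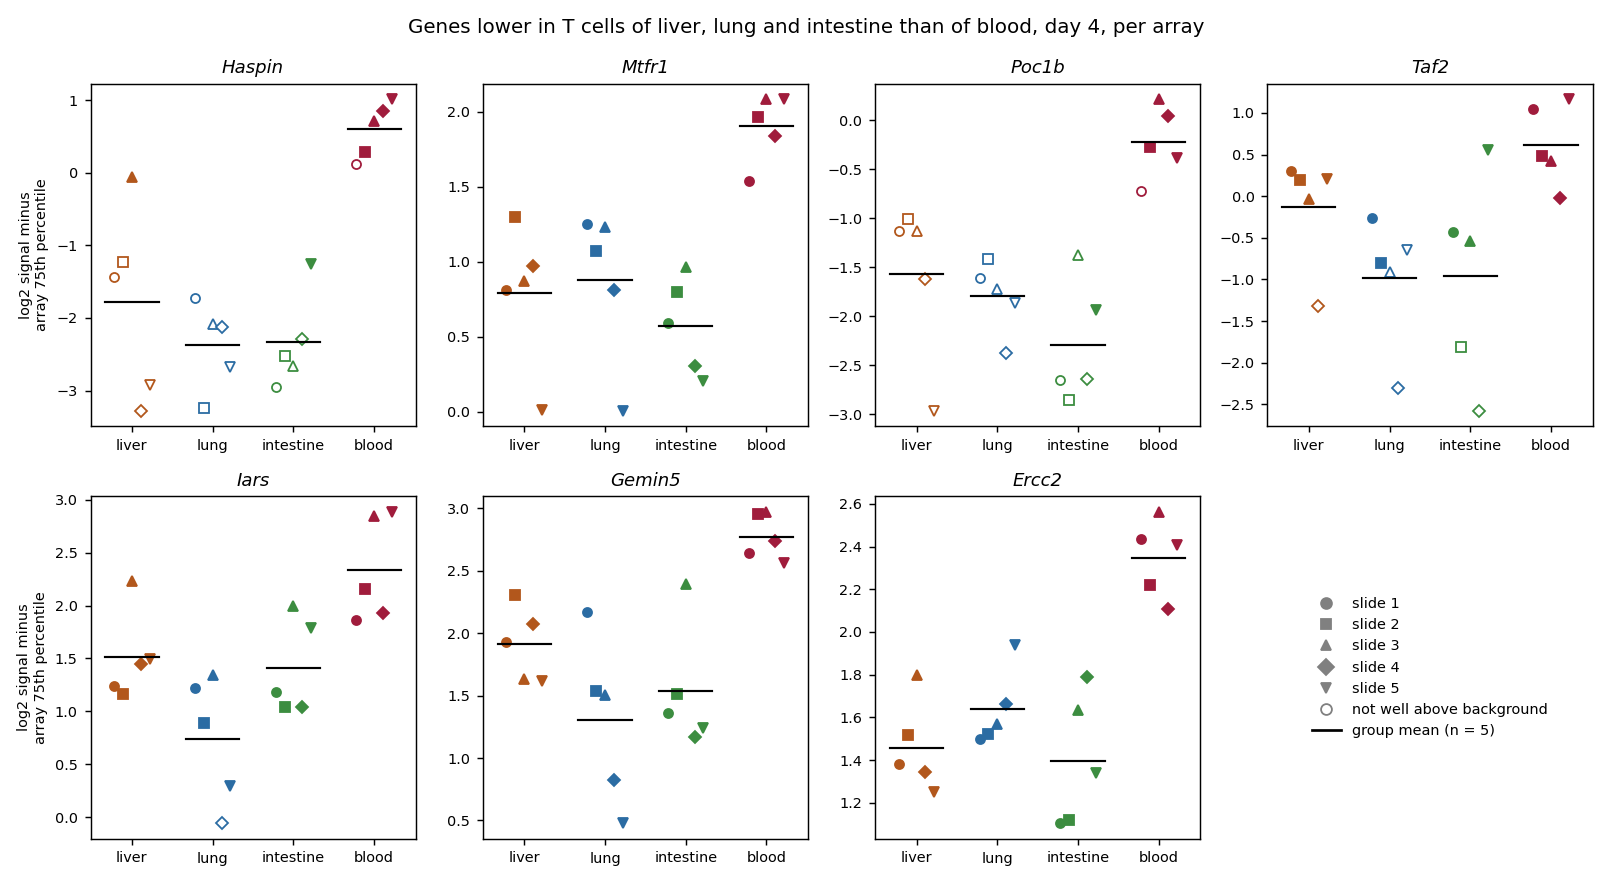
Log2 processed signal minus the 75th percentile of the array (vertical axis) of the 7 genes that were lower in T cells of the tissues, for liver, lung, intestine and blood on day 4. Point shapes give the slide, open points were not well above background, and lines are means of 5 arrays. Most tissue points of Haspin and Poc1b are open, while Mtfr1, Gemin5 and Ercc2 are filled throughout.

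**Figure D3:**
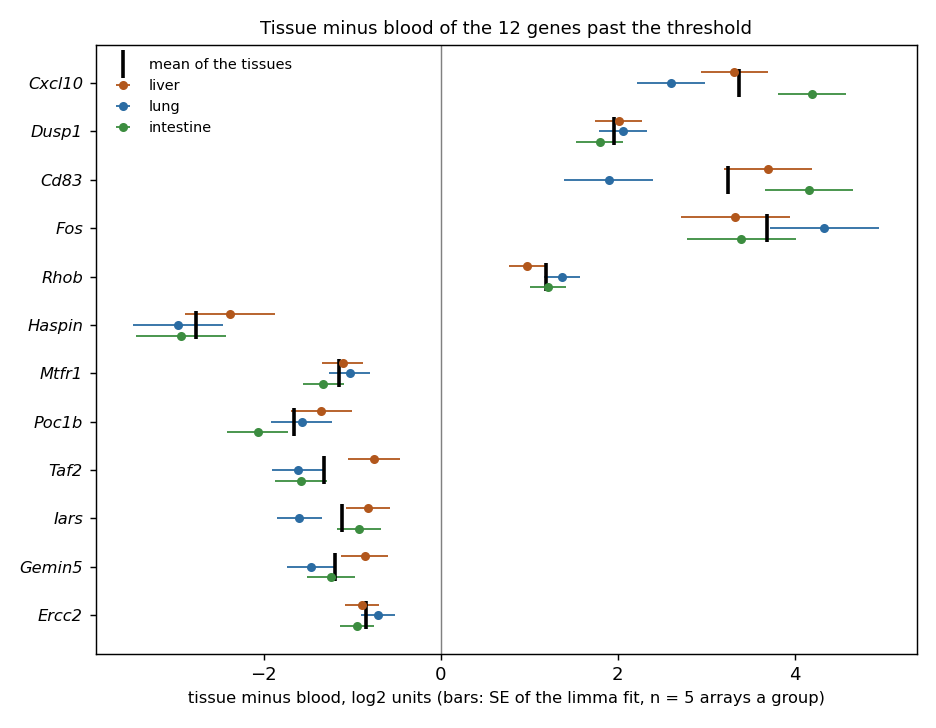
Difference of liver, lung and intestine from blood in log2 units (horizontal axis) for the 12 called genes, with the standard error of the fit (5 arrays a group), and the mean of the tissues as a black bar. All points of a gene lie on the same side of 0, with Cd83 lower in lung (1.90) than in liver (3.70) and intestine (4.16).

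The probes of the called genes lie, in mm9 as the files give them, on chromosome 5 at 92775781 to 92775840 (Cxcl10), chromosome 17 at 26642526 to 26642536 (Dusp1), chromosome 13 at 43898276 to 43898335 (Cd83), chromosome 12 at 86817900 to 86817959 (Fos) and chromosome 12 at 8506305 to 8506364 (Rhob). Those of the lower genes lie on chromosome 11 at 72949429 to 72949488 (Haspin), chromosome 3 at 19119481 to 19119540 (Mtfr1), chromosome 10 at 98660229 to 98660288 (Poc1b) and chromosome 15 at 54846955 to 54847014 (Taf2). Iars lies on chromosome 13 at 49829328 to 49829387, Gemin5 on chromosome 11 at 57934802 to 57934861 and Ercc2 on chromosome 7 at 19980982 to 19981041. The exon or untranslated region that each probe covers was not analysed here.

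Of 21 tested immediate-early genes, 2 were called higher (Dusp1 and Fos) and 0 lower, beside 0.0577% and 0.0807% of all genes. At an unadjusted p under 0.05, 14 of 21 were higher and 0 lower, beside 9.5% and 20.1% of all genes. Of these 14, Fos, Fosb, Maff and Ier2 passed the filter in tissue groups and not in blood, which favours a higher level in tissue. The median difference of the list was 0.84, with 0.90 in liver, 0.76 in lung and 0.93 in intestine, against -0.19 over all genes tested. In 17 of the 21 all 3 tissues were above blood. Leaving out 1 array gave 11 to 16 higher at an unadjusted p, and without lung 4 and intestine 4 there were 15. The number called after adjustment was 2 in most of these fits, 3 without liver 3, 5 without blood 3 and 10 without intestine 5.

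The AP-1 subunits other than Fos did not pass the adjusted threshold. Fosb read 3.75, 3.98, 2.00, 2.86 and 4.90 in liver, 5.40, 5.52, 2.63, 3.90 and 4.06 in lung, and 5.14, 5.57, 2.93, 2.63 and 4.13 in intestine, against 3.1, 3.46, 2.56, -2.29 and -2.83 in blood. The blood arrays of slides 4 and 5 were far below the tissues and those of slides 1, 2 and 3 overlapped with them. The difference was 3.16 ± 0.73 (adjusted p = 0.0833). Jun had a difference of 1.28 ± 0.29 (adjusted p = 0.0833), higher on 13 of 15 arrays, Jund one of 0.52 (adjusted p = 0.168) and Fosl2 one of 0.65 (adjusted p = 0.177).

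Nr4a1, a nuclear receptor gene induced by signalling through the T cell receptor, read 4.77, 5.39, 3.50, 4.69 and 6.01 in liver, 5.01, 5.58, 4.93, 3.97 and 4.67 in lung, and 4.49, 4.86, 4.60, 3.58 and 5.83 in intestine, against 2.83, 3.94, 4.20, 2.51 and 2.99 in blood. It was higher on 14 of 15 arrays, liver 3 being the exception, with a difference of 1.5 ± 0.33 (adjusted p = 0.0833). Egr1 differed by 1.31 ± 0.44 (adjusted p = 0.114), and Gadd45b, a stress-induced signalling protein, by 1.69 ± 0.43 (adjusted p = 0.0872). Maff, a small MAF transcription factor, differed by 2.40 ± 0.63, with 1 of 5 blood arrays well above background. Zfp36l1, a protein that speeds decay of short-lived transcripts, differed by 0.90 ± 0.25 (adjusted p = 0.0918). Dusp2, Zfp36l2 and Socs3 had negative differences in the mean of the tissues, of -0.34, -0.31 and -0.08.

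**Figure D4:**
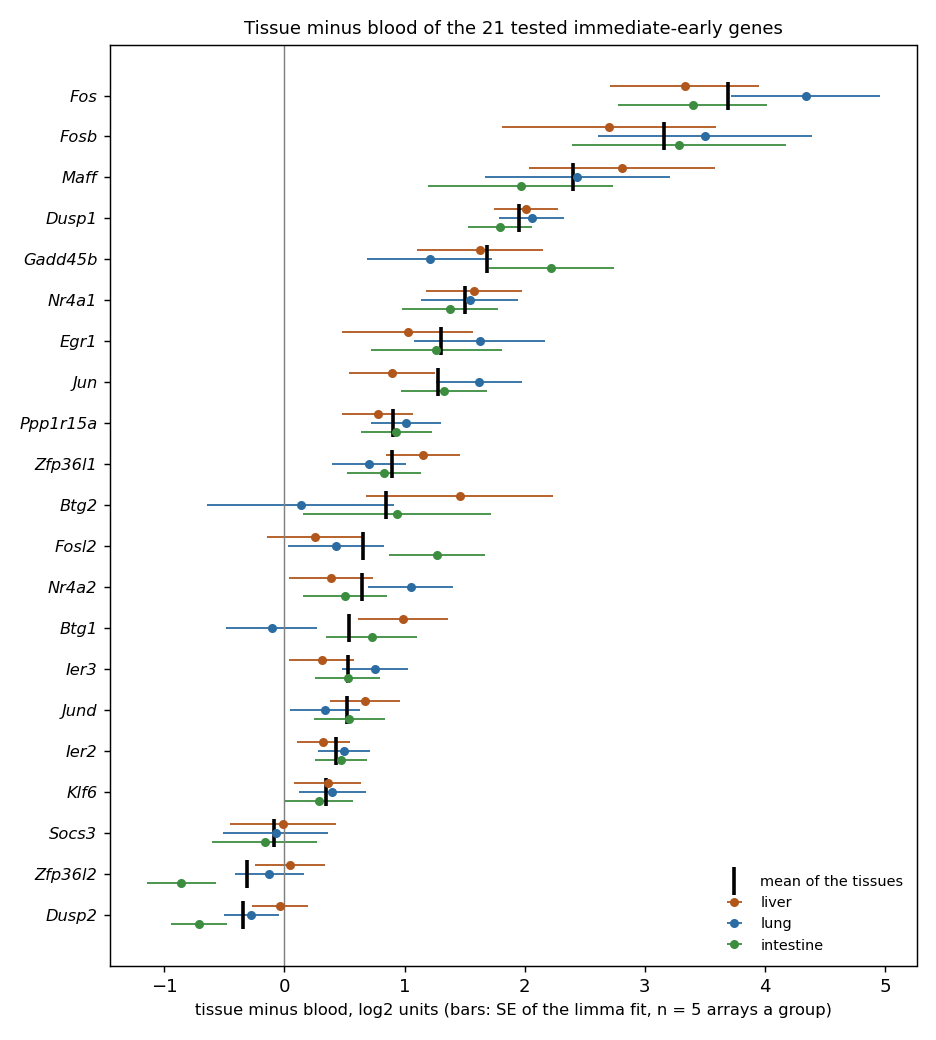
Difference of liver, lung and intestine from blood in log2 units (horizontal axis) for the 21 tested immediate-early genes, ordered by the mean of the tissues (black bars), with the standard error of the fit (5 arrays a group). Fos, at 3.69, is at the top, Dusp2, at -0.34, at the bottom, and 18 of the 21 means are above 0.

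NF-kappaB is a transcription factor family that controls Cd83, Cxcl10 and its own inhibitors. Of 17 tested genes of the list, Cd83 was called higher and none lower, beside 0.0577% and 0.0807% of all genes. At an unadjusted p 4 were higher, beside 9.5% of all genes, and the median difference was 0.37. By tissue it was 0.62 in liver, -0.02 in lung and 0.46 in intestine. Nfkbia, the main inhibitor, differed by 0.92 ± 0.27 (adjusted p = 0.0938), and Nfkbie, a second inhibitor, by 1.87 in liver, 0.00 in lung and 2.14 in intestine (adjusted p for the mean 0.0959).

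Among 8 chemokine genes Cxcl10 was the one called, beside 0.0577% of all genes higher and 0.0807% lower. Xcl1, a chemokine that T cells make for cross-presenting dendritic cells, differed by 0.93 ± 0.36 (limma adjusted p = 0.142). Among 8 cytokine genes none was called, beside the same shares of all genes. Il17a had a difference of 2.83 ± 0.82 (adjusted p = 0.0929), with values from -1.21 to 4.31 in liver, -0.57 to 1.65 in lung and 0.12 to 2.88 in intestine, against -3.85 to -0.29 in blood. It was well above background on 13 tissue arrays (3 liver, 5 lung and 5 intestine) and on blood 2 and blood 3. Il17a thus entered the test through lung and intestine, and not through blood. On 12 tissue arrays it was above the blood array of the slide, and on 3 below. On slides 4 and 5, where blood was dim, tissue arrays differed from blood by 3.80 to 8.16. On the other slides they differed by -0.93 to 2.91, so the fitted size is uncertain.

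Of 18 tested genes of the response to the T cell receptor none was called, with 4 higher and 2 lower at an unadjusted p, beside 9.5% and 20.1% of all genes. Of the 4 higher, Cish, Cd40lg and Myc passed the filter in tissue groups and not in blood. Cish, an inhibitor of cytokine and receptor signalling, differed by 2.55 ± 0.71 (adjusted p = 0.0915) and was higher on 13 of 15 arrays. Il2ra, which encodes the high-affinity subunit for interleukin 2, differed by -1.11 ± 0.38 (adjusted p = 0.117), and Nfatc2, a transcription factor downstream of calcium, by -1.57 ± 0.53 (adjusted p = 0.114). The medians of this list, 0.32 in liver, -0.11 in lung and 0.38 in intestine, did not share a sign.

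Genes of egress and residency are those by which circulating and tissue T cells are usually told apart, and none of the 12 and 11 tested passed the adjusted threshold. S1pr1, the receptor through which T cells leave tissue, read 2.56, 2.10, 1.72, 2.49 and 0.34 in liver, 2.14, 2.74, 1.75, -0.32 and 1.28 in lung, and 0.58, -0.52, 2.14, -2.48 and 1.5 in intestine, against 2.36, 2.75, 3.26, 3.88 and 2.35 in blood. It was lower on 14 of 15 arrays, liver 1 being the exception, and its difference was -1.72 ± 0.59 (adjusted p = 0.115). It was -1.08 in liver, -1.40 in lung and -2.67 in intestine, the last past the threshold on its own (limma adjusted p = 0.0312). In intestine 989 of the 8672 genes tested were called lower. S1pr1 was well above background on 3 of 5 intestine arrays, and on slide 4 intestine differed from blood by -6.36, so the fitted size there is uncertain.

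Cd69, which holds T cells in tissue by removing that receptor from the surface, read 1.92, 2.47, 1.93, 1.78 and 1.34 in liver, 3.21, 3.09, 2.39, 0.47 and 1.43 in lung, and 2.52, 1.34, 3.01, -0.28 and 2.15 in intestine, against 0.79, 2.60, 0.54, -1.88 and -0.18 in blood. Blood 2 was higher than most tissue arrays, and liver and intestine of that slide were below it. The difference was 1.54 ± 0.40 (adjusted p = 0.0872).

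The other members of these lists had differences in both directions. Foxo1, a transcription factor that maintains S1pr1 and lymph node homing genes, differed by -0.79 ± 0.29 (adjusted p = 0.131), and Gimap5, a survival GTPase, by -0.91 ± 0.40 (adjusted p = 0.161). Ccr7, the lymph node homing receptor and thus a gene of circulating cells, went the other way, at 1.36 ± 0.45 (adjusted p = 0.112). Klf2, a further regulator of S1pr1, differed by 0.17 ± 0.29 and Il7r, a cytokine receptor of resting T cells, by -0.14 ± 0.66, each within its own error. Klf3, S1pr4, Rasgrp2, Rasa3 and Dgka had differences of -0.31, -0.27, -0.39, -0.51 and -0.93. The median of the egress list was -0.40, with -0.11 in liver, -0.41 in lung and -1.07 in intestine taken singly.

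In the residency list Rgs2, a regulator of G protein signalling, differed by 0.99 ± 0.27 (adjusted p = 0.0872) and by 1.02, 1.02 and 0.93 in liver, lung and intestine. Cxcr6, the receptor that keeps T cells in liver, had a negative difference of -0.82 ± 0.40 (adjusted p = 0.173). Prdm1, Runx3 and Bhlhe40, transcription factors of tissue-resident cells, had differences of -0.63 ± 0.51, 0.27 ± 0.51 and 0.45 ± 0.51. Cd101, Litaf, Skil and Rgs1 had 0.75, 0.63, 0.59 and 0.15. The median of the residency list was 0.60, with 0.77 in liver, -0.13 in lung and 0.93 in intestine.

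Outside these lists, Cxcr4, a chemokine receptor of bone marrow and inflamed tissue, differed by 1.49 ± 0.40 (adjusted p = 0.0872) and was higher on 13 of 15 arrays. Of 14 cytotoxic genes, 0 were called and 4 were lower at an unadjusted p, beside 20.1% of all genes. Among the 4 were Prf1, the pore-forming perforin, at -1.64 (limma adjusted p = 0.0872), and Gzmb, a granzyme, at -0.86 (limma adjusted p = 0.168). Prf1 was well above background on 3 liver, 2 lung, 1 intestine and 5 blood arrays. It was therefore tested only through blood, the group where it is high. Gzma, Nkg7, Fasl and Lamp1 of the same list differed by 0.02, -0.01, 0.01 and 0.08.

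Genes of cell division leaned lower without passing the adjusted threshold. Of 26 genes of DNA replication, 17 were lower at an unadjusted p and 1 was higher, and of 26 genes of mitosis 15 were lower and 0 higher, beside 20.1% and 9.5% of all genes. The medians were -0.57 and -0.72, against -0.19 over all genes. By tissue the medians were unequal: -0.16, -0.52 and -0.97 for replication in liver, lung and intestine, and -0.11, -0.72 and -1.39 for mitosis. Gins1, a part of the replicative helicase, had a difference of -0.86 ± 0.23 and E2f1, a regulator of entry into DNA synthesis, one of -0.65 ± 0.18 (both adjusted p = 0.0872). Both were lower on 15 of 15 arrays. Ccnb1, the mitotic cyclin, had a difference of -1.52 ± 0.43 and Aurka, a spindle kinase, one of -1.07 ± 0.32 (adjusted p = 0.0918 and 0.0965). Without lung 4 and intestine 4, 15 replication and 10 mitosis genes were lower at an unadjusted p. Leaving out 1 array gave 6 to 18 and 5 to 22, and 6 and 9 genes were called lower without intestine 5.

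The counts that follow stand beside 9.5% of all genes higher and 20.1% lower at an unadjusted p. Of 38 mitochondrial ribosomal proteins, 17 were lower at an unadjusted p, none was called, and the median was -0.43, with liver at -0.11, lung at -0.44 and intestine at -0.61. Of 51 cytosolic ribosomal proteins, 0 were called or past an unadjusted p in either direction. Their median of 0.22 turned to -0.06 in the deposited table and to -0.05 by quantile normalisation, and 9 were higher at an unadjusted p after centring on the median of detected probes. Of 19 glycolysis genes 6 and of 17 genes of amino acid synthesis 6 were lower at an unadjusted p, among them Shmt2, the mitochondrial serine enzyme, at -0.73 (adjusted p = 0.0833), and Pfkl, a phosphofructokinase, at -1.20 (adjusted p = 0.0872). Of 15 heat shock genes 6 were lower and 1 higher at an unadjusted p, with a median of -0.36. Hspd1, the mitochondrial chaperonin, differed by -0.50 and Hsp90aa1, the inducible chaperone, by -0.36. Bag3, Hspa4 and Hspa8 had positive differences of 0.73, 0.60 and 0.26. Of 15 genes stimulated by type I interferon 1 was lower and 0 higher, and of 17 induced by interferon gamma 2 were higher and 0 lower, Irf1 at 0.40 and Gbp6 at 2.06 (adjusted p = 0.165 and 0.144).

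**Figure D5:**
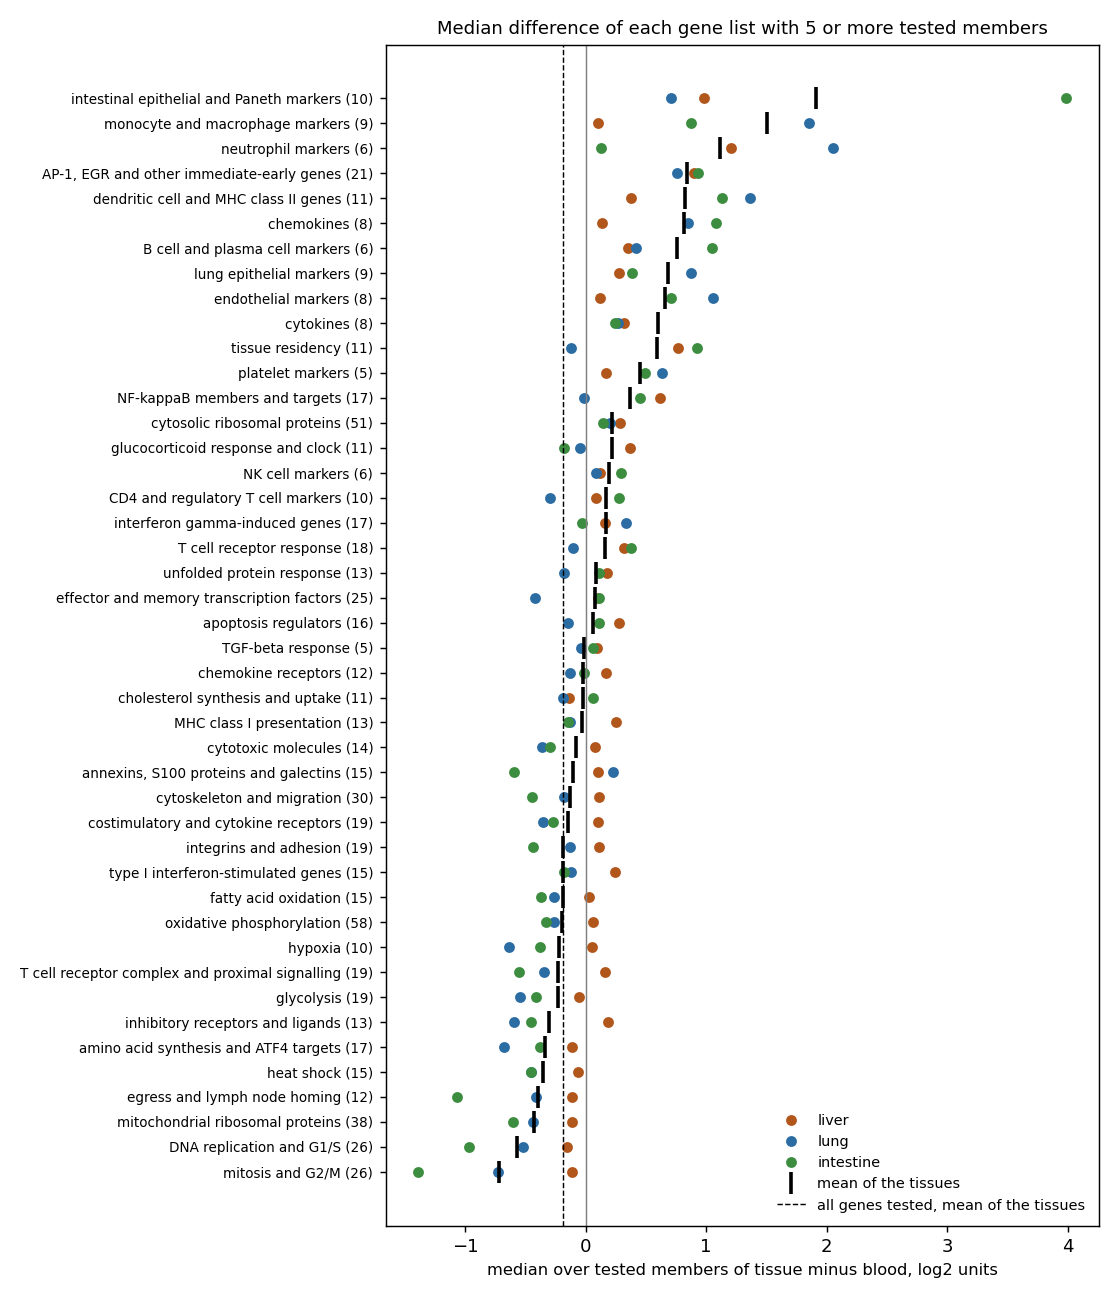
Median difference from blood in log2 units (horizontal axis) over the tested members of each of 44 gene lists with 5 or more tested members (number in brackets), for liver, lung, intestine and the mean of the tissues (black bars). The dashed line is the median of all tested genes, -0.19. The immediate-early list lies near 0.84 with its tissues close together, while marker lists of other cells above and around it are spread.

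Cd3d, Cd3e, Cd3g, Cd8a and Cd8b1 were well above background on all 20 arrays. Cd3d, Cd3e and Cd3g, chains of the T cell receptor complex, had values of 5.26 to 7.22, 4.76 to 6.54 and 3.67 to 5.84 in the tissues, against 5.94 to 6.60, 5.78 to 6.29 and 5.05 to 5.58 in blood. Cd8a ranged from 2.10 to 5.09 and Cd8b1 from 0.79 to 4.76 in the tissues, against 4.04 to 5.07 and 3.77 to 4.47 in blood, with the lowest of both on intestine 4. Differences were -0.52 ± 0.34 for Cd8a, -0.72 ± 0.40 for Cd8b1, -0.18 ± 0.20 for Cd3e, 0.36 ± 0.23 for Cd4 and -0.23 ± 0.27 for Ptprc, and none passed the threshold (adjusted p from 0.198 to 0.520).

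Transcripts of other cells were present on part of the tissue arrays, and their share in the results above was not tested. Of 27 monocyte and macrophage markers with a probe, 4 were not well above background on any day 4 array (Vsig4, Timd4, Msr1 and Fcgr3). The log2 of their summed signal ranged from 5.25 to 6.28 in liver, 4.80 to 9.69 in lung and 5.03 to 9.04 in intestine, against 4.79 to 5.92 in blood. Of 18 genes of dendritic cells and MHC class II, 3 were never well above background (Clec9a, Cd209a and Ciita), and the sum ranged from 6.45 to 8.29 in liver, 7.05 to 8.18 in lung and 6.79 to 8.91 in intestine, against 5.85 to 6.82 in blood. Of the 11 tested, 8 were higher at an unadjusted p, beside 9.5% of all genes, and none was called. Of these 8, Cd74, H2-Ab1, H2-Eb1, H2-DMb1 and H2-DMa passed the filter in tissue groups and not in blood. Ccr7, another of the 8, is also in the egress list. The filter favours such a count, which therefore adds no support for a higher level in tissue.

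H2-Ab1, a chain of MHC class II, read -2.60, 0.33, -2.77, -3.26 and 4.05 in liver, 3.39, 4.03, -2.10, 5.54 and 5.39 in lung, and 6.16, 6.54, -2.64, 4.43 and -0.28 in intestine, against -2.0, -0.48, -3.43, -3.61 and 0.13 in blood. Neither H2-Ab1 nor Cd74, the chain that guides it, was well above background on liver 1, liver 3, liver 4 and lung 3, whereas H2-DMa, Itgax, Xcr1 and Cst3 of the same list were on all 15 tissue arrays. On those 4 arrays the summed signal of that list was 6.45, 6.87, 7.56 and 7.09. The blood arrays of their slides had 5.85, 6.65, 6.82 and 6.65. That sum includes Ccr7, named above as a gene of lymph node homing. Ccr7 read 5.33, 4.01, 6.43 and 4.55 on the 4 arrays, against 3.02, 4.65, 4.95 and 4.65 on those blood arrays. The sums therefore do not show whether the 4 arrays held transcripts of other cells. Cd83 read 4.57, 1.62, 4.70 and 0.34 on the 4 arrays, and Cxcl10 2.03, -0.15, 0.66 and -1.04, each above the blood array of the slide. Whether other cells contributed to these values was not tested. Fos read 1.83, 2.68, 0.91 and 1.52 there. Liver 3 and lung 3 had the lowest Cd83 values among the tissue arrays.

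Epithelial markers followed a like pattern. Of 24 intestinal epithelial and Paneth cell markers 6 were never above background, Muc2 and Epcam among them, and the sum ranged from 4.15 to 8.23 in liver, 5.28 to 7.21 in lung and 4.34 to 9.91 in intestine, against 3.78 to 4.89 in blood. Of 22 hepatocyte markers 12 were never above background, among them Alb and Ttr, and the sum ranged from 2.83 to 4.17 in liver, 3.06 to 5.84 in lung and 2.13 to 5.21 in intestine, against 2.12 to 2.77 in blood. Of 20 B cell and plasma cell markers 6 were never above background, Ms4a1 among them, and the sum ranged from 3.46 to 6.18 in liver, 3.78 to 5.02 in lung and 4.15 to 6.56 in intestine, against 3.33 to 4.18 in blood. Of 17 neutrophil markers 5, Ly6g among them, were never above background, with a sum of 6.35 to 7.83 in liver, 6.29 to 7.04 in lung and 6.11 to 6.78 in intestine, against 6.23 to 6.68 in blood.

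A test of differences among liver, lung and intestine, which uses no difference from blood, called 12 genes (0.138% of those tested). They were Sftpc, Sftpa1, Ear1, Ear2, Ear10, Ear12, Rnase2a, Krt79, Lpl, Cidec, Atp6v0d2 and Cbr2, and each was tested only because it was well above background on 4 of 5 lung arrays. None was so on a liver or blood array, and at most 2 intestine arrays were, so that a higher level in lung follows from the filter. With the filter on all 20 arrays the count was 0. Sftpc and Sftpa1 are surfactant genes of the alveolar epithelium, and Lpl and Cidec act in lipid storage. The Ear genes and Rnase2a are close copies of one another, so probes may not tell them apart. None of the 12 genes called against blood for the mean of the tissues was among them. In this F-test the lowest adjusted p of the genes called against blood was 0.124, for Cd83, which does not show that they were equal in the tissues. The count was 0 without liver 1, 2 or 4, lung 1, 2, 4 or 5, blood 5 or intestine 1, 2 or 4. It was 4 without blood 1, 3 without blood 2 or blood 3, 19 without blood 4, 22 without liver 3, 39 without lung 3, 431 without liver 5 and 943 without intestine 5.

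Values of the 4 graft arrays, on a slide of their own that was scanned on another day, are given beside those of the called genes with no test. Cxcl10 ranged from 1.16 to 1.80 in the graft, Dusp1 from 2.56 to 3.25, Cd83 from 3.15 to 3.55, Fos from 3.65 to 4.80 and Rhob from 0.62 to 1.32. All of these lay above every blood array of day 4. Haspin ranged from -3.19 to -2.51 and Mtfr1 from -0.53 to 0.48, below every blood array. Poc1b ranged from -1.46 to -1.14, Taf2 from -1.79 to -0.55 and Ercc2 from 1.30 to 2.04, also below every blood array. Gemin5 ranged from -1.05 to 0.43 and Iars from -1.48 to -0.66, below the lowest tissue arrays (0.48 and -0.06).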

How the data were processed

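RNA from 20 samples of selected T cells, 300 pg each after 2 rounds of linear amplification per the labels' protocols, was measured on 1-colour Agilent arrays, 1 per sample, and the number of arrays limits the precision. The authors deposited 1 scanner file per array. Its processed signal is a linear intensity, background-subtracted and not normalised between arrays per the file headers. The same deposited files give the mean and background intensity for each spot, and the flags for spots well above background or non-uniform. The file headers name Agilent Feature Extraction 9.5.1.1, whereas the submitters' processing notes name 10.7. A second, series-wide deposited table holds log2 values. It matched log2 signals that were quantile-normalised and centred per probe over the 24 arrays (lowest correlation 0.999), with column medians from -0.03 to 0.028, and was used as an alternative.

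Each array had 44397 spots, 43020 of them for 39429 gene probes. Of these probes, 27597 were named through accessions, 3488 through symbols and 393 through synonyms, while for 1356 the files' own name was used and 6595 stayed unnamed. Log2 signals were reduced by the 75th percentile of each array, and 39 non-uniform spots were left out. A probe was tested if it was well above background on all, or all but 1, arrays of a group. This left 10300 probes, and each of 8672 genes was represented by its brightest probe. A gene that passed through only 1 group was not well above background on more than 1 array of each other group. limma 3.58.1 in R 4.3.3 (statmod 1.5.0) was fitted with a mean per group and slide as a fixed term (12 residual degrees of freedom), and the procedure was tested on simulated data. The numbers of the labels equal the slides of the file headers. Deviations from group means correlated within slides by 0.12, 0.15, 0.32, 0.07 and -0.05 on average.

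The comparison and the 49 gene lists were chosen with earlier results of these data known. Named by rule were genes called in every tissue, called members of lists, all tested egress and residency genes, of which 1 is not reported here, and 5 T cell genes. The 7 lower genes, and list members below the adjusted threshold, were chosen after their values were seen. Alternatives changed the scaling, background correction, filter, probe, block, spread and arrays. Lists were not tested as sets.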

Additional observations from a re-analysis of the deposited data

Results flagged for a closer look

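In 4 of the 48 groups of 5 arrays formed by the 12 called genes, 1 array lay far from the others in Dixon's test, of which chance flags about 1 in 20. Dusp1 in liver was lowest on liver 3, at 1.598 with the nearest array at 2.26. Rhob in lung was lowest on lung 1, at -0.182 with the nearest at 0.51. Taf2 in liver was lowest on liver 4, at -1.319 with the nearest at -0.04. Gemin5 in intestine was highest on intestine 3, at 2.39 with the nearest at 1.52, which is closer to the blood arrays.

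The F-test among liver, lung and intestine was past the threshold for 12 genes. Each had entered the test through lung, where 4 of 5 arrays were well above background, against 0 in liver, 0 in blood and at most 2 in intestine, so the test adds no support for a higher level in lung. Its adjusted p was 0.0242 for Ear1, Krt79 and Sftpc, 0.0345 for Lpl, 0.0455 for Cidec and 0.0461 for Atp6v0d2 and Sftpa1. It was 0.0472 for Cbr2, Ear10, Ear12, Ear2 and Rnase2a. Ear2 was well above background on 4 of 5 lung arrays, all but lung 3, with values up to 7.28, and on no liver or blood array.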

How the results depend on the processing

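The 5 higher genes were called under every one of the 35 alternatives that tested them, and 0 of the 12 called genes changed sign in any. The lower genes depended on the setting, since Haspin was called in 32 of 34 alternatives, Mtfr1 in 30 of 35, Poc1b in 25 of 34, Gemin5 in 14 of 35, Ercc2 in 11 of 35, Taf2 in 9 of 34 and Iars in 8 of 34. The causes of the changes below were not tested. The fit with the replicate block, which here is the slide, called 12 genes, and without the block 11 (5 higher, 6 lower). The count of called genes, and likewise of called genes with 1 sign in each tissue, was 8 by quantile normalisation, 6 in the deposited table, 7 with the filter on all 20 arrays, 7 with trend and robust moderation and 7 without lung 4 and intestine 4. There were more with normexp (26), all 24 arrays (214) and array weights (2573, of which 2421 with 1 sign). Leaving out 1 array gave 5 to 1016 (with 1 sign 5 to 992). The count called in each tissue was 0 without the block or with a random one, 4 with 24 arrays, 1 with the filter on all arrays, 6 without a filter, 7 with array weights and 1 to 4 on leaving out 1 array. The genes that differed among tissues were 29 with a random block, 58 with 24 arrays, 24 without a filter, 5647 with array weights, 3 after median centring over detected probes or with trend and robust moderation, and 0 by quantile normalisation, normexp, the deposited table, the filter on all arrays or without lung 4 and intestine 4, with 0 to 943 on leaving out 1 array. Other scalings moved the median of all genes by -0.11 (75th percentile of detected probes) to 0.10 (median of detected probes). Of genes past an unadjusted p, 32.1% were higher, against 23.7% and 46.7% under these 2 scalings.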
